A study of Caenorhabditis elegans with 2 samples.

Results

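The spliceosome and SR protein genes described here are the protein-coding genes of Caenorhabditis elegans whose name begins with snr-, rsp-, prp-, sap-, sftb- or uaf-. Membership follows from the name with no measured value, although the prefixes were picked with earlier results of these data known. They came to 35 of 19973 protein-coding genes on the 6 nuclear chromosomes of WBcel235 (ce11). Binding of XND-1 at their promoters was read from peak lists of chromatin immunoprecipitation followed by sequencing (ChIP-seq). The worms, strain QP0661, carried XND-1 with a GFP-FLAG tag at its C-terminus, and chromatin of whole young adult hermaphrodites, collected 50 h after release from L1 arrest, was precipitated with an antibody against GFP. All animals were of this 1 group, in 2 biological replicates, so no condition could be compared with another. Because whole animals were used, binding in the germline and in the soma cannot be told apart, and no list from untagged worms was used.

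The spliceosome removes introns from nuclear pre-mRNA. It is built from small nuclear ribonucleoproteins (snRNPs), most of them a small nuclear RNA on a ring of Sm proteins, with helpers that recognise splice sites, join the particles and rearrange them. SR proteins carry RNA recognition motifs and a domain rich in arginine and serine. They bind exons and recruit the U1 and U2 machinery, and in worms they act in part redundantly in development. XND-1 itself binds chromatin in worm germ cells and is known from its effect on meiotic crossovers of the X chromosome.

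A gene was counted as bound when a summit of the list that passed the irreproducible discovery rate (IDR) procedure fell in its promoter window, from 500 bp before to 200 bp after the 5′ end of any annotated coding transcript. That list had 1841 peaks. The looser lists that fed it, which contain background regions as well, had 24467 peaks for the pooled replicates, 22772 for replicate 1 and 22364 for replicate 2. The score of a peak is the authors' own deposited signalValue, to which no unit is given. The IDR and pooled lists carry the same scores, and those of the replicates run lower, so a replicate is set against the pooled list by rank. For each list the highest summit in a gene's window is given, which need not be the same position in every list.

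XND-1 summits lay at the promoters of 7 of the 35 genes (20%), against 6.68% of all protein-coding genes. The 7 were 4 SR protein genes (rsp-6, rsp-5, rsp-2 and rsp-7), 2 Sm genes (snr-4 and snr-3) and prp-40. They rested on 6 summits, because rsp-5 and snr-3 lie head to head and share 1. No member lies on X, where XND-1 peaks are few, and among autosomal genes alone 7.68% were bound. The scores of the 7 were ordinary for bound genes, with a median of 144, against 145 over all 1334 bound genes. Both medians are over genes, so the summit shared by rsp-5 and snr-3, itself the median of the 7, enters 2 times.

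The sequences around the 6 summits are given first, since later statements on base composition and words rest on them. Each is the 101 bp centred on the summit, 5′ to 3′ on the strand of the gene named, from the RefSeq genome of the same build (WBcel235). Capitals mark CGCG wherever it occurs. They also mark ACCGTA, which reads TACGGT where it lies on the opposite strand. In the windows of rsp-5 and rsp-7 they mark TTGGC and, 5 bases after it, its reverse complement, GCCAA. The windows are chrIV:7791343-7791443 minus strand (rsp-6), chrV:11980028-11980128 minus strand (snr-4), chrII:6489948-6490048 plus strand (rsp-5, with snr-3 on the other strand), chrII:11453145-11453245 minus strand (rsp-2), chrII:10658878-10658978 plus strand (rsp-7) and chrIII:9521840-9521940 plus strand (prp-40). The rsp-7 and snr-4 windows overlap exons of annotated non-coding RNA genes, and the other windows hold no annotated exon.
rsp-6: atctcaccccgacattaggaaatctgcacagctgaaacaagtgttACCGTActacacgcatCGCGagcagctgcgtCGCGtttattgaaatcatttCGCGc
snr-4: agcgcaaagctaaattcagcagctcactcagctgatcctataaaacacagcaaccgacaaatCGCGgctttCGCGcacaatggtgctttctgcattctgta
rsp-5 and snr-3: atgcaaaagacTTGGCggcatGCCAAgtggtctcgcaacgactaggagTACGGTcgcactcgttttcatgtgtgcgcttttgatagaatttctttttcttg
rsp-2: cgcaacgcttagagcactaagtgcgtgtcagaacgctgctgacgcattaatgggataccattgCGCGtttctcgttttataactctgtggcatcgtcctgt
rsp-7: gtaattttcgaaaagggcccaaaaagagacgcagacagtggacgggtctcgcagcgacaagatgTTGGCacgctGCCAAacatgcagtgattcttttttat
prp-40: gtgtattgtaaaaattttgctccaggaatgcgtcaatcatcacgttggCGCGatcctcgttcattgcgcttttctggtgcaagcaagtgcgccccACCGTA

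Of the SR protein genes, rsp-1 to rsp-8, 4 of 8 were bound (50%), against 6.68% of all genes. This was above the share of the Sm genes in the IDR list (28.6%), but the order turned round in the 1841 highest peaks of replicate 1 (50% and 57.1%) and in the 921 strongest IDR peaks (25% and 28.6%). The highest score of all members was at rsp-6, which encodes a small SR protein like human SRSF3. Its summit, at chrIV:7791393, lay 164 bp upstream of the 5′ end of the gene (WBGene00004703, chrIV:7789847-7791229, minus strand). The score was 284 in the IDR list, where it ranked 402nd, and 142 and 144 in the lists of replicates 1 and 2, where it ranked 417th and 402nd. Both replicates therefore placed this gene at nearly the same place in their lists.

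The rsp-5 summit, at chrII:6489998, stood in the 403 bp between rsp-5 (WBGene00004702, chrII:6490165-6491340, plus strand) and snr-3 (WBGene00004916, chrII:6488830-6489761, minus strand). It was 167 bp upstream of the SR protein gene and 237 bp upstream of the Sm gene. Its score was 144 in the IDR list (rank 811), 69.7 in replicate 1 (rank 878) and 74.3 in replicate 2 (rank 809). A single peak thus entered the count for a gene of each family, and which of the genes it belongs to cannot be read from a peak list.

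The rsp-2 summit, at chrII:11453195, lay 240 bp upstream of rsp-2 (WBGene00004699, chrII:11451441-11452955, minus strand) with a score of 118 (rank 997). It scored 67.7 in replicate 1 (rank 894) and 54.4 in replicate 2 (rank 1133). The neighbour across the 406 bp gap is rsp-1 (WBGene00004698), whose outermost 5′ end is 167 bp from that summit. That end belongs to a non-coding isoform, and the nearest 5′ end of an rsp-1 coding transcript is 779 bp away. Counting 5′ ends of any transcript, rsp-1 joined the bound genes, which made 8 members and 5 SR protein genes. The highest summit in the windows of the coding isoforms of rsp-1 lay inside the gene, with a pooled score of 42.5 (rank 3147).

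The rsp-7 summit, at chrII:10658928, lay 278 bp upstream of rsp-7 (WBGene00004704, chrII:10659206-10662317, plus strand), an SR-related protein gene. A non-coding RNA gene, M28.13, covers this position. The summit was also 302 bp upstream of snu-13, on the other strand, which encodes a protein of the U4/U6.U5 tri-snRNP. Its score was 95.5 (rank 1243), with 57.1 in replicate 1 (rank 1050) and 39.7 in replicate 2 (rank 1616). The score of replicate 1 was 1.44 times that of replicate 2, the largest such ratio among the bound members. For 1320 bound genes with a summit in both replicates the ratio had a median of 0.969, and from 5% to 95% of genes it ran from 0.616 to 1.58, so the ratio at rsp-7 was inside the usual spread.

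The other 4 SR protein genes had summits in the pooled list only below the IDR list. rsp-3, which encodes the worm SRSF1 (SF2/ASF) and is needed for embryonic development, had a pooled score of 42.5 (rank 3149), with 24.3 in replicate 1 (rank 2922) and 20 in replicate 2 (rank 4069). Its pooled summit was 298 bp upstream of rsp-3 but 98 bp upstream of spin-4 on the other strand. rsp-8, like the splicing regulator Tra2, had a pooled score of 22.4 (rank 9030) and a summit in replicate 2 (22.2, rank 3401) but none in replicate 1. Its pooled summit lay inside the gene, 6 bp upstream of an internal 5′ end. rsp-4, the worm SRSF2 (SC35), had a pooled score of 13.7 (rank 22432) and no summit in either replicate list. The family as a whole had a pooled summit in the window of each of its 8 genes, against 27.7% of all protein-coding genes, and background regions are part of the list at such ranks.

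**Figure D1:**
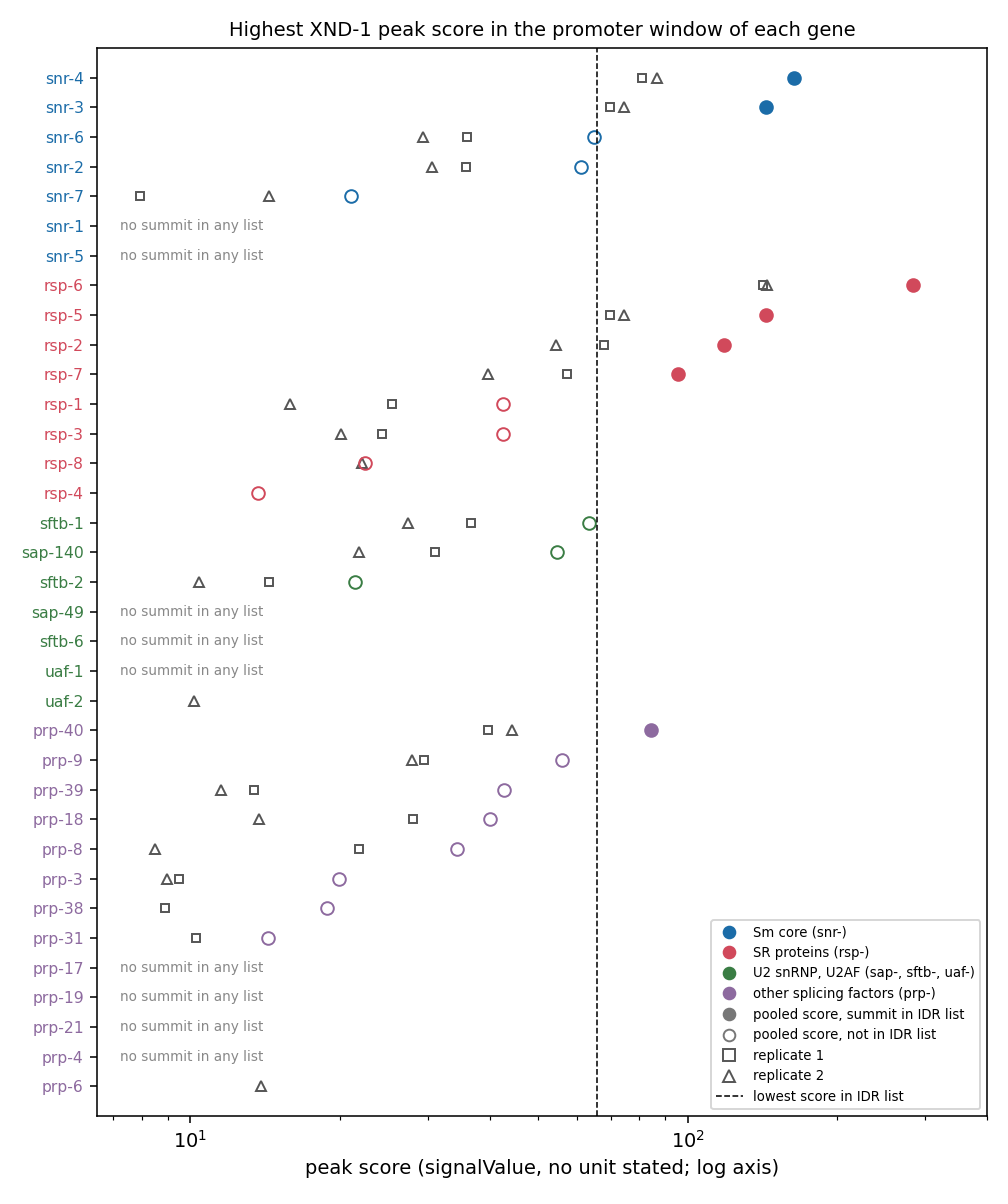
Highest peak score in the promoter window of each of the 35 genes, on a log axis, grouped by family. Circles are pooled scores, filled where the summit is in the IDR list, and squares and triangles are replicates 1 and 2. The 7 filled circles run from 84.4 at prp-40 to 284 at rsp-6, and 3 open circles, at snr-6, sftb-1 and snr-2, sit just left of the lowest score of the IDR list.

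The 7 Sm genes, snr-1 to snr-7, encode the ring on which each Sm-class snRNP is built, and 2 of them were bound (28.6%), against 6.68% of all genes. snr-4, for the Sm D2 protein, had a summit at chrV:11980078, 355 bp upstream of its 5′ end (WBGene00004917, chrV:11978508-11979723, minus strand). The score was 164 (rank 724), with 81 in replicate 1 (rank 755) and 86.9 in replicate 2 (rank 695). The same summit lay 40 bp upstream of a gene for a small nuclear RNA on the plus strand, C52E4.8 (WBGene00014291, chrV:11980118-11980261), which the release 115 annotation lists under the name T11F9.15. An unclassified non-coding RNA gene, C52E4.14, also covers the summit. The peak next to this Sm protein gene is therefore also a peak next to an snRNA gene, and the share of each was not tested. snr-3 encodes Sm D1, and its summit is the one shared with rsp-5.

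Of the 5 Sm genes that were not bound, 2 lay at the edge of the list. snr-6, for Sm E, had a pooled score of 64.8 (rank 1866), with the lowest score in the IDR list at 65.6. It scored 36 in replicate 1 (rank 1756) and 29.3 in replicate 2 (rank 2306), and its summit was 293 bp upstream. snr-2, for Sm B, had a pooled score of 61.1 (rank 2015), with 35.8 in replicate 1 (rank 1768) and 30.6 in replicate 2 (rank 2176). Its pooled summit was 355 bp upstream of snr-2 but 111 bp upstream of W08E3.4 on the other strand. Both snr-6 and snr-2 were within the 1841 highest peaks of replicate 1 and outside those of replicate 2. snr-7, for Sm G, had a pooled score of 21.1 (rank 10154), with 7.93 in replicate 1 (rank 21968) and 14.4 in replicate 2 (rank 7676). Its pooled summit was 290 bp upstream of snr-7 and at the 5′ end of Y71F9B.6 on the other strand. snr-1 (Sm D3) and snr-5 (Sm F) had no summit in their windows in any of the 4 lists. Windows of the ring's genes thus ran from an IDR summit to none in any list, and both IDR summits also stood near another gene.

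Genes named sap-, sftb- or uaf- encode proteins of the U2 snRNP and of U2AF, which recognise the branch point and the 3′ splice site. None of the 7 was bound, against 6.68% of all genes and 7.68% of autosomal genes. In so short a list, none bound is close to those shares. sftb-1, for the SF3B1 subunit that clamps the branch helix, came nearest with a pooled score of 63.2 (rank 1929), with 36.7 in replicate 1 (rank 1708) and 27.4 in replicate 2 (rank 2516). Its summit was 462 bp upstream of sftb-1 but 11 bp upstream of R10E4.1 on the other strand. sap-140, for a SURP-motif protein of the U2 snRNP, had a pooled score of 54.6 (rank 2322) with its summit 78 bp upstream, and scores of 31 (rank 2091) and 21.8 (rank 3492) in replicates 1 and 2. That summit lay between sap-140 and C07H6.9, which points the other way. sftb-2, for SF3B2, had a pooled score of 21.4 (rank 9841), with 14.4 in replicate 1 (rank 6997) and 10.4 in replicate 2 (rank 15066). uaf-2, for the small subunit of U2AF, had a summit in replicate 2 alone, with a score of 10.2 (rank 15688). sap-49 (SF3B4), sftb-6 (SF3B6) and uaf-1, for the large subunit of U2AF, had no summit in any list.

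The 13 prp- genes encode factors named for pre-mRNA processing, and 1 of them was bound (7.69%), a share near the 6.68% of all genes and the 7.68% of autosomal genes. prp-40, for a WW-domain protein of the U1 snRNP type, had its summit at chrIII:9521890, 185 bp upstream of the gene (WBGene00014218, chrIII:9522075-9525454, plus strand). The score was 84.4 (rank 1414), with 39.7 in replicate 1 (rank 1561) and 44.3 in replicate 2 (rank 1419). The summit was also in the window of clu-1 on the other strand, 430 bp upstream of its 5′ end. prp-9, for the SF3A3 subunit of the U2 snRNP, followed with a pooled score of 55.8 (rank 2261), with 29.5 in replicate 1 (rank 2238) and 27.9 in replicate 2 (rank 2459). The next was prp-39 (U1-associated in yeast) at 42.8 (rank 3118), with its pooled summit inside the gene. The highest summits in its window were at another position in the replicates, at the 5′ end itself, with 13.4 in replicate 1 (rank 8044) and 11.5 in replicate 2 (rank 12222). prp-18, a factor of the later catalytic step, had pooled rank 3388, with scores of 28 (rank 2382) and 13.7 (rank 8473) in replicates 1 and 2.

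None of the other prp- genes was bound. prp-8, the large U5 protein at the heart of the spliceosome, had a pooled score of 34.3 (rank 4202), with rank 3403 in replicate 1 and rank 21651 in replicate 2. prp-3 and prp-31, of the U4/U6 snRNP, had pooled scores of 19.9 (rank 11460) and 14.3 (rank 20865), and prp-38, which acts in spliceosome activation, had 18.8 (rank 12801). Of these 3 genes, prp-3 had a summit in both replicate lists (9.50 and 8.99), while prp-31 and prp-38 had one in replicate 1 (10.2 and 8.87) and none in replicate 2. prp-6, which bridges the tri-snRNP, had a summit in replicate 2 alone, with a score of 13.9 (rank 8291). prp-4, of the U4/U6 snRNP, prp-17, prp-19, a ubiquitin ligase of spliceosome activation, and prp-21, the SF3A1 subunit, had none in any list. The nearest IDR summit to prp-19 lay 590 bp upstream, beyond the window, with a score of 88.3.

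**Figure D2:**
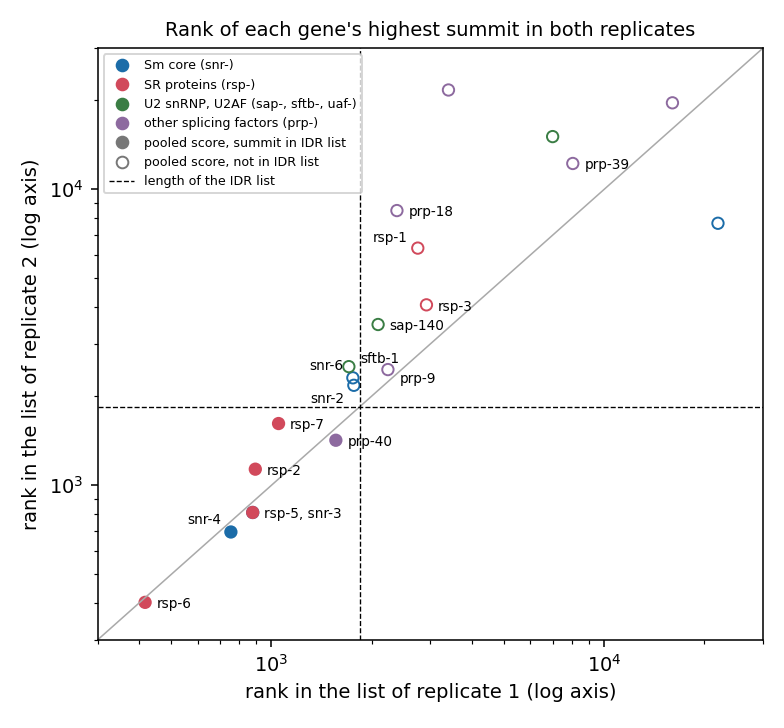
Rank of each gene's highest promoter summit in replicate 1 and in replicate 2, on log axes, for genes with a summit in both. The 7 bound genes (rsp-5 and snr-3 coincide) lie near the diagonal and inside both dashed lines, while snr-6, snr-2 and sftb-1 lie inside the line of replicate 1 only.

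The IDR step keeps peaks that recur in both replicates, so agreement at the bound members follows in part from how that list was made. When the 1841 highest peaks of replicate 1 replaced the IDR list, 10 members were bound, against 6.67% of all genes, and when those of replicate 2 did, 7 were, against 6.37% of all genes. The 7 genes of the IDR list were in each of these sets, and replicate 1 added sftb-1, snr-2 and snr-6. Summits of the replicates lay at a median of 14 bp from each other for the bound members and 18 bp for all bound genes. In the loose lists as they stand, 24 members had a summit in the pooled list (68.6%), against 27.7% of all genes. The list of replicate 1 had one for 22 members (62.9%), against 27.3% of all genes. That of replicate 2 had one for 23 (65.7%), against 25.6%. Of the 35, 20 had a summit in all 3 loose lists, against 3382 of all 19973 genes, and 9 had none in any of the 4, against 12556 of all genes.

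Just below the IDR list, further members had a summit in their promoter window. The next 1841 peaks of the pooled list, down to rank 3682, brought a summit to 9 of the 28 members still without one (32.1%), and to 782 of all genes (4.2% of those still without one). Of these 9, prp-18, prp-9, rsp-3, sap-140, sftb-1 and snr-2 shared the summit with the window of a gene on the other strand. At prp-18, rsp-3, sftb-1 and snr-2 the summit was nearer to the 5′ end of that other gene. At prp-39 and rsp-1 the summit lay inside the gene. How often such sharing held for other genes was not counted. The band after that, down to rank 7364, added 1 member (5.26% of those still without one), against 5.09% of all genes still without one. Down to rank 14728 a further 5 members were added, 27.8% of those still without one, against 7.17% of all such genes. The remainder of the pooled list, to rank 24467, added 2 (15.4%, against 8.16%). Among the 3682 highest pooled peaks, 16 of 35 members (45.7%) had a summit, against 10.6% of all genes. Asked of the replicates apart, 12 members (34.3%) had a summit among the 3682 highest peaks of both, against 8.16% of all genes. The 4 that were in the pooled set but not in both replicates were prp-18, prp-39, rsp-1 and rsp-3. Within the 921 strongest peaks of the IDR list, 4 members had a summit (11.4%), against 3.7% of all genes. The highest member, rsp-6, stood at rank 402.

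**Figure D3:**
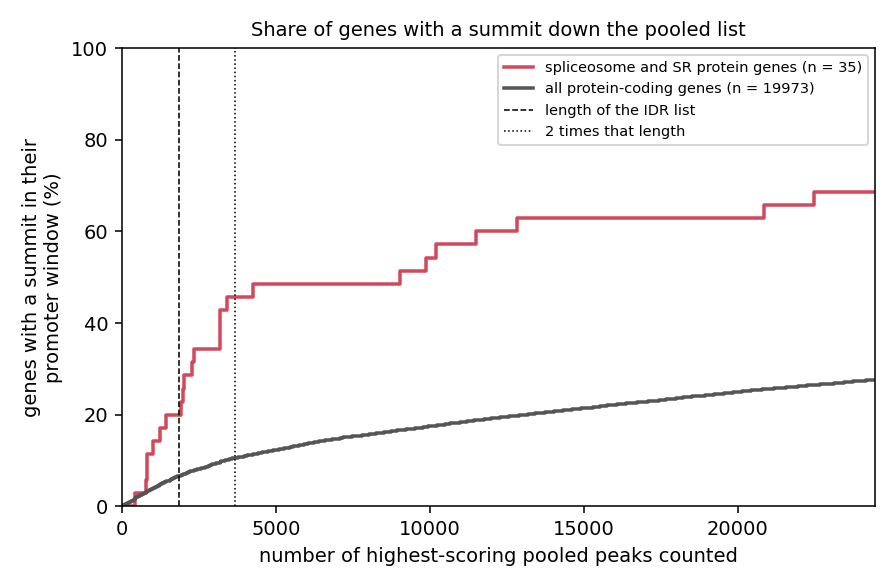
Share of genes with a summit in their promoter window as more of the highest-scoring pooled peaks are counted, for the 35 spliceosome and SR protein genes (red) and all 19973 protein-coding genes (grey). At the dashed line, the length of the IDR list, the shares are 20% and 6.68%, and at the dotted line 45.7% and 10.6%.

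The bound members' summits stood upstream of the 5′ ends, from 164 bp at rsp-6 to 355 bp at snr-4. Their median was 237 bp upstream, against 199 bp over all bound genes. Summits of rsp-6, rsp-5 and prp-40 were within 200 bp of the 5′ end, and those of rsp-2, snr-3, rsp-7 and snr-4 were further away, so a narrower window, 200 bp before to 100 bp after the 5′ end, kept 3 of the 7. Many annotated 5′ ends in worms are sites of trans-splicing rather than of transcription start, so these distances need not be distances to a start site. Among the members just below the list, sap-140 and prp-9 had summits near their 5′ ends (78 and 106 bp upstream), whereas the sftb-1 and snr-2 summits were 462 and 355 bp away.

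**Figure D4:**
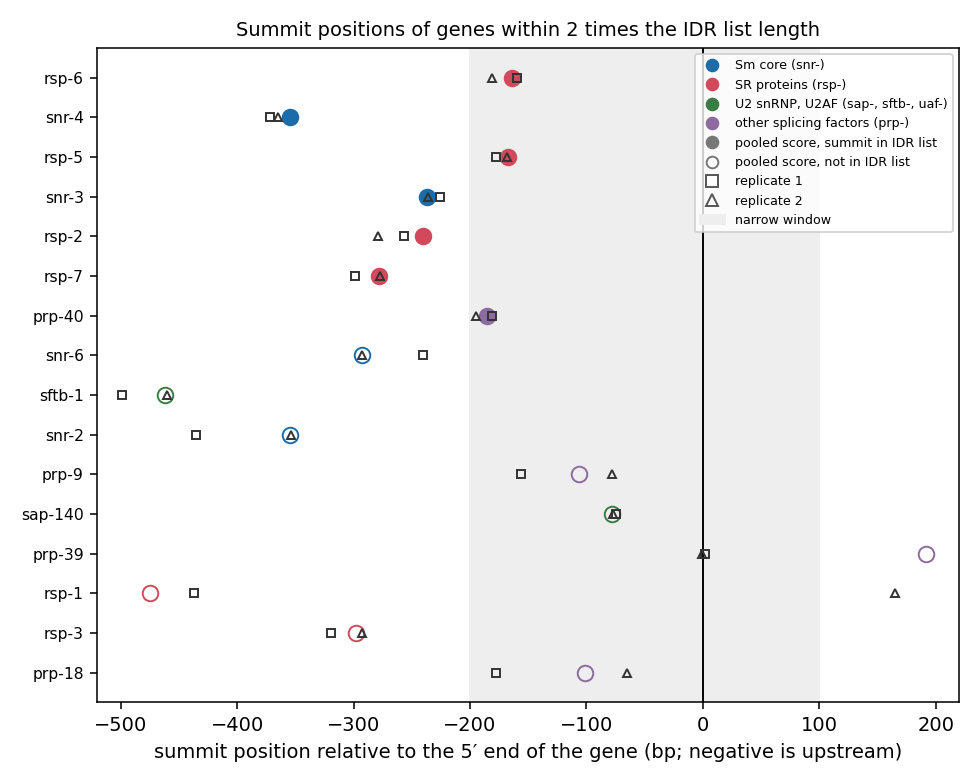
Position of the highest summit for the 16 genes with a pooled summit within 2 times the length of the IDR list, in order of score. Each is relative to the nearest coding 5′ end whose promoter window holds the summit. At rsp-1 the replicate 2 summit is therefore placed from another 5′ end than the pooled one. The 7 filled circles lie between 164 and 355 bp upstream, with the replicates' summits (squares and triangles) close by, and the grey band marks the narrower window, 200 bp before to 100 bp after the 5′ end.

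Most of these genes have a neighbour on the other strand upstream. This layout held for 26 of the 35 members (74.3%), against 45% of all protein-coding genes, and 5 of the 26 were bound, against 9.26% of all genes of that layout. Besides rsp-5, snr-3, rsp-2 and rsp-7, the fifth was prp-40. A gene on the same strand that ends less than 500 bp upstream was found for 6 members, and of these rsp-6 was bound, with 6.78% bound over all genes of that layout. For the remaining 3 members the upstream gene is on the same strand and further away, and of these snr-4 was bound, with 3.31% bound over all such genes. In worms, closely packed genes on 1 strand are often transcribed together as an operon from a promoter before the first gene. No operon annotation was used here, and the layouts were defined after the members' values had been seen.

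The other 5 of the 6 closely packed genes were prp-3, prp-38, prp-39, rsp-4 and sap-49. For prp-38 the nearest IDR summit lay 2056 bp upstream with a score of 90.9. It is the summit 178 bp upstream of plrg-1, which ends 106 bp before prp-38 and encodes a protein of the Prp19 complex. For prp-39 the nearest lay 2132 bp upstream (score 102), beyond hmgs-1, and for rsp-4 it lay 1246 bp upstream (score 87.2), beyond ndx-6. For prp-3 it lay 8285 bp upstream (score 83.1), beyond smrd-1, and for sap-49 it lay 3881 bp upstream (score 87.2).

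**Figure D5:**
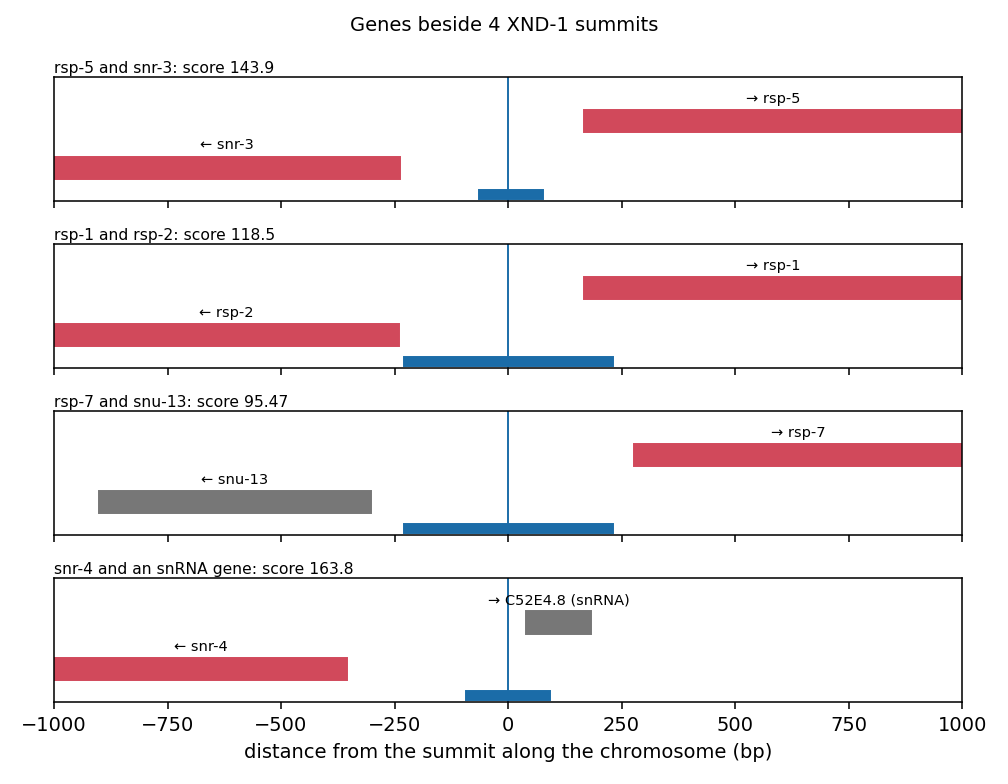
Genes beside 4 of the 6 summits, drawn to scale as distance from the summit (0), with arrows for the direction of transcription and the blue bar for the deposited peak interval. Members are red and other genes grey. At rsp-5 and snr-3, rsp-1 and rsp-2, and rsp-7 and snu-13 the summit stands between a pair of splicing genes that point away from each other, and at snr-4 it stands 40 bp before an snRNA gene.

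A pair of splicing genes faced the summit from both sides at 3 of the 6 bound loci (rsp-5 and snr-3, rsp-2 and rsp-1, rsp-7 and snu-13). For rsp-1 this holds only by the 5′ end of its non-coding isoform, and snu-13 is not a member. How often other IDR summits stand between such pairs was not counted, so this only describes the loci. The fourth locus, that of snr-4, had the snRNA gene C52E4.8 on the other side. The remaining loci were those of prp-40, with clu-1 as its neighbour, and of rsp-6, whose upstream neighbour C33H5.13 ends 474 bp before it on the same strand.

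The sequences at the 6 summits were richer in G and C than promoters in general, with a median of 48.5% in the 101 bp window, against 42.6% at 1116 other IDR summits in promoter windows and 33.7% in windows of that length centred 200 bp upstream of all protein-coding genes. CGCG was present in 4 of the 6 (rsp-6, snr-4, rsp-2 and prp-40), against 51.6% of the other promoter summits and 11.2% of all promoters. The rsp-6 window held it at 3 places and the snr-4 window at 2. At prp-40 it covered the summit itself. GC content differed between the same sets, and its part in these counts was not tested. GAGAGA was in none of the 6, against 7.71% and 7.47%. TTTTTT was in 1 (rsp-7), against 34.1% and 45.7%, and TTTCAG, the trans-splice acceptor type of word, was in 1 (rsp-6), against 12.8% and 16.9%. Each word was searched on both strands.

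A pair of further words was searched after the sequences had been read, so their counts describe only what was seen. ACCGTA or its reverse complement was present in 3 of the 6 windows (rsp-6, the window of rsp-5 and snr-3, and prp-40), against 20.8% of other promoter summits and 3.19% of all promoters. In rsp-6 its last base was the summit base, and in rsp-5 it covered the summit, from 2 bp before to 3 bp after. In prp-40 it lay at the edge of the window, 45 to 50 bp after the summit. None of these copies overlapped a CGCG. The spaced word, TTGGC followed after 5 bases by GCCAA, is the form of binding site known for nuclear factor I proteins in vertebrates. It was present in the window of rsp-5 and snr-3 and in that of rsp-7, 2 of 6, against 10 of 1116 other promoter summits (0.896%) and 26 of 19973 promoters (0.13%). A match of letters does not show that a factor binds there.

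Other genes of the splicing machinery, from a list of 62 further names, had 14 bound (22.6%), beside 7 of 35 members (20%) and 6.68% of all genes. The highest were smn-1 (738), for the survival motor neuron protein that loads Sm rings on snRNAs, and mog-4 (431), for a DEAH-box helicase of the spliceosome that also acts in the sperm to oocyte switch. Then came prcc-1 (309), rsr-1 (169), for an SR-related nuclear matrix protein, and hel-1 (167), the worm UAP56 helicase. These were followed by acin-1 (160), ddx-23 (103), a helicase of the Prp28 type, ccdc-12 (102), snu-13 (95.5, the summit shared with rsp-7) and plrg-1 (90.9). The other 4 bound genes scored from 72.1 to 86.1. No member scored as high as smn-1, mog-4 or prcc-1.

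Regulators of alternative splicing, which act on chosen exons, had 3 of 19 bound (15.8%), beside 20% of members and 6.68% of all genes. Among them were ccar-1 (135) and hrpk-1 (112), for an hnRNP K protein. The remaining 16 were not bound. They were unc-75, exc-7, asd-1, asd-2, fox-1, mbl-1, sup-12, etr-1, mec-8, sym-2, ptb-1, hrpa-1, hrpr-1, hrpf-1, tiar-1 and tiar-2. Of these, fox-1, mbl-1 and sup-12 lie on X, where 0.366% of all genes were bound. The list is short, and no difference from the members was tested.

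By chromosome, the bound members were 4 of 10 on II, 1 of 11 on III, 1 of 4 on IV and 1 of 5 on V, with none of 5 on chromosome I. The rates over all genes were 8.55%, 11.2%, 6.61%, 4.31% and 10.5%. The 4 on II stand at 3 places.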

How the data were processed

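XND-1 ChIP-seq was done on 2 biological replicates of 1 group, per the labels. Per the deposited file descriptions, the authors called peaks against a control, once for each replicate and once for the replicates together, and derived from these the list thresholded by IDR. The aligner, peak caller and IDR cut-off are not given in the sources used here. The deposited signalValue of each peak was used as a score, with no unit stated. The deposited −log10 q value was 3.78 for every IDR peak and ranked none. Read depth is unknown, because the lists hold no counts of reads. Replicates are labelled as separate biological samples.

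From the ce11 lists, a summit (start plus column 10, written 1-based) was placed in windows of 500 bp upstream to 200 bp downstream of 5′ ends of protein-coding transcripts, annotation release 115, WBcel235. A gene with several summits took the highest score. Sequence came from the RefSeq genome of that build, whose chromosomes hold every peak. The ce10 lists were not used. No test over samples exists with 1 group, so shares are set beside those of all genes. Of 64 and 20 names in the lists of other spliceosome genes and of regulators, 62 and 19 matched. Members with an IDR summit, or within 3682 pooled peaks, are named, then the next 6, then those with no summit; the rest are named too. One regulator and one sequence are not reported here. Members and lists were chosen with earlier results of these data known. Window placement was tested on simulated data. Python 3.11.15, numpy 2.4.6, pandas 2.3.3 and matplotlib 3.10.9 were used.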

Additional observations from a re-analysis of the deposited data

How the results depend on the processing

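The 7 bound members depended most on how many peaks were counted and how wide the window was. The 921 strongest IDR peaks left 4 members, 6 other spliceosome genes and 739 genes in all, and 2 times as many peaks, from the pooled list, gave 16, 23 and 2116. A window from 200 bp before to 100 bp after the 5′ end left 3 members (prp-40, rsp-5 and rsp-6), 7 other spliceosome genes, 1 regulator of alternative splicing and 658 genes. One from 1000 bp before to 500 bp after it gave 9 members, adding prp-19 and rsp-1, with 1698 genes in all. Any overlap of at least 1 bp gave 8, adding prp-19, with 1516 genes, and the outermost 5′ end gave 8, adding rsp-1, with 1248 genes. Leaving out a replicate gave 7 to 10 members, 14 other spliceosome genes and 3 regulators both times, and 1272 to 1333 genes. Counting 5′ ends of non-coding isoforms, chosen after seeing the data, gave 8 members and 1336 genes. The members' share exceeded that of all genes under each of these settings. No paired analysis was possible because there was 1 group. Depth could not be weighed, since no list gives reads.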
